A study of Mus musculus with 40 samples.

Results

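Interleukins are secreted proteins through which leukocytes and tissue cells signal to each other, and each acts through receptor chains on the responding cell. The gene set described here is every row of the deposited normalised table whose gene name begins with Il and a digit, which gave 60 of 21204 genes. They were 17 ligands, the receptor antagonist Il1rn, 36 signalling receptor chains, 4 decoy or soluble receptors (Il1r2, Il13ra2, Il18bp and Il22ra2) and 2 others, the amino acid oxidase gene Il4i1 and the non-coding RNA Il1bos. All 60 were tested.

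Bulk RNAseq was made from rib calluses of wild type mice, 7 weeks old (skeletally immature) or over 10 months old (skeletally mature), at baseline and at 0, 2, 5 and 14 days after resection of a piece of rib (dpr). By the study's methods these were female C57BL/6 mice with 3 mm defects, and the question was how repair differs with skeletal maturity. The tissue was a composite of bone, marrow and intercostal muscle, and the labels place baseline tissue after resection whereas the paper defines baseline as before it. Of 40 samples in 10 groups, 39 were analysed, with n = 4 in each group except mature 5dpr, where n = 3 because mature 5dpr replicate 2 was not analysed here. The labels do not say whether replicates were separate animals, so p-values measure the spread between these samples, which may be technical.

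Total counts ranged from 6075355 to 21546977 per library, with a median of 9092201. In immature 0dpr replicate 1, 188 genes were more than 5 times above the next library, led by liver genes such as Alb, at 4704 CPM against at most 264 CPM in any other library. The same count was 50 genes in immature 5dpr replicate 2, 26 in mature 2dpr replicate 3 and at most 9 in the other libraries. The summed level of 20 skeletal muscle genes had a median of 106674 CPM at immature baseline, 163005 at immature 0dpr and 25612.5 at immature 2dpr, and of 71272, 165473 and 20446 CPM at the matching mature stages. The leukocyte gene Ptprc moved the other way, with medians of 265, 117 and 442 CPM in immature mice and 390, 143 and 552 CPM in mature mice. In bulk tissue, fewer cells of a type and less RNA per cell cannot be told apart.

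Interleukin-1 beta and interleukin-1 alpha act through the receptor Il1r1 and its partner chain Il1rap. Il1rn encodes an antagonist that occupies Il1r1 without signalling, and Il1r2 a decoy that binds the ligand without signalling. The family also holds Il33 (receptor Il1rl1), the interleukin-36 gene Il1f9 (receptor Il1rl2) and Il18 (receptor chains Il18r1 and Il18rap). Interleukin-4 and interleukin-13 act through Il4ra with Il2rg or Il13ra1, interleukin-10 through Il10ra and Il10rb, and interleukin-6 and interleukin-11 through their own receptor chains and the shared chain Il6st (gp130). In bone repair, these cytokines are known as part of the inflammatory phase and as regulators of bone resorption.

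Calls among the interleukin genes were mostly lower at 0dpr than at baseline and mostly higher at 2dpr than at 0dpr, and Il1b, Il1f9 and Il1r2 rose again between 5 and 14dpr at both ages. Of these late rises, the Il1f9 calls at both ages and the mature Il1r2 call were lost in some fits that left out 1 library. Of the 60 members, 48 passed the test in at least 1 of 10 stage comparisons and 12 in none, among them the ligands Il7 and Il34. Of all 21204 genes 71.5% passed in at least 1 of these comparisons, so the 80% of members is read against a high background. The test throughout was edgeR's quasi-likelihood test with Benjamini-Hochberg adjustment over all 21204 genes and a threshold of 0.05, and levels are CPM, reads of a gene scaled to a common library size with TMM factors. Differences are on the log2 scale with their SE.

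**Figure D1:**
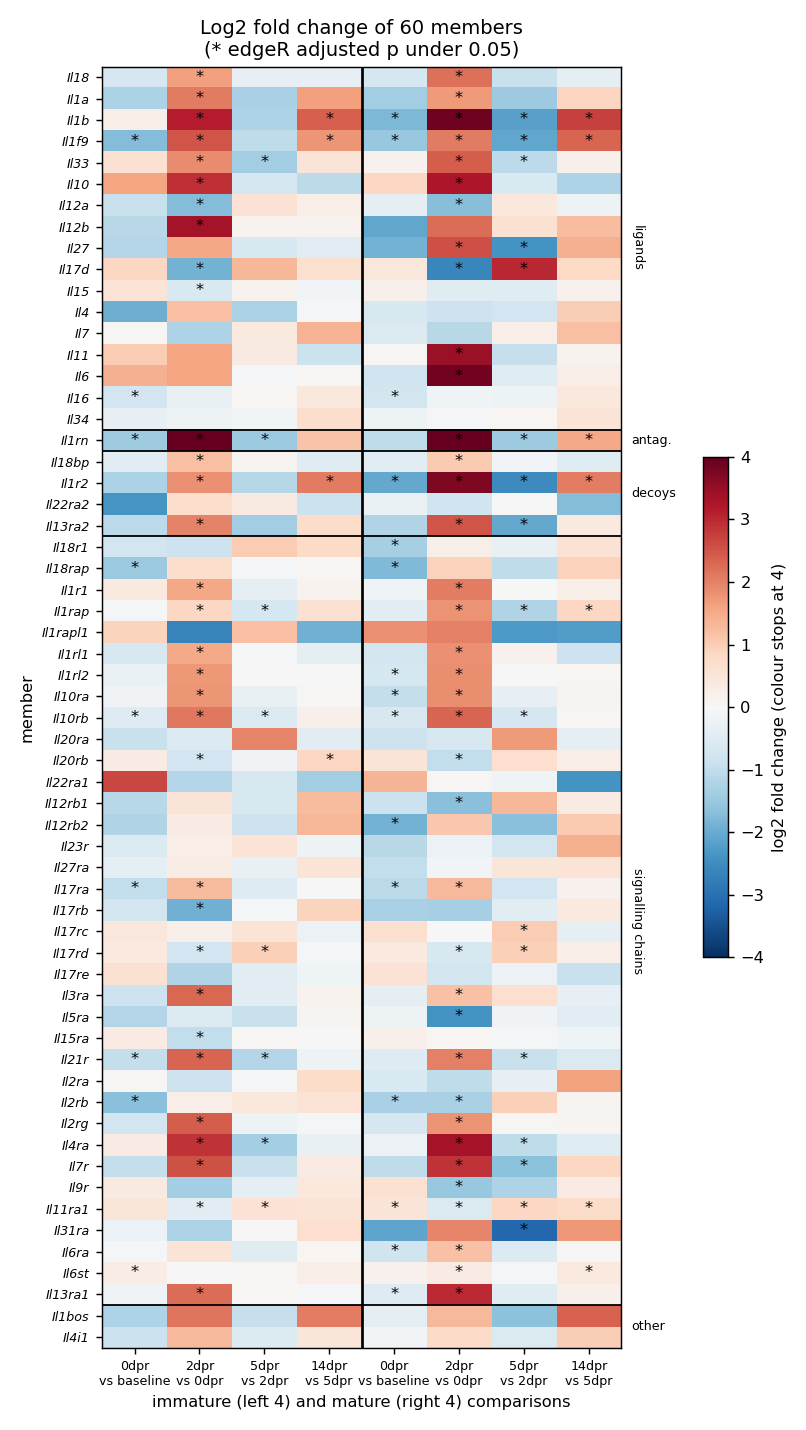
Log2 fold change of each of the 60 members (rows, grouped by role) in the 4 successive stage comparisons of immature (left) and mature (right) mice, with red for higher and blue for lower and an asterisk where the edgeR adjusted p passed the threshold. The column for 2dpr against 0dpr is mostly red at both ages, and Il1b, Il1rn and Il1r2 turn red again between 5 and 14dpr.

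Il1b was the ligand with the clearest pair of peaks. In immature mice its libraries had 10.6, 5.57, 7.15 and 6.70 CPM at baseline, 16.3, 12, 3.10 and 5.43 at 0dpr, 57.4, 69.2, 116 and 74.6 at 2dpr, 41.4, 52.1, 12.5 and 31.0 at 5dpr, and 246, 172, 167 and 121 at 14dpr. In mature mice they had 25.8, 30.2, 61.4 and 26.1 CPM at baseline, 7.69, 15.5, 6.2 and 12.4 at 0dpr, 153, 61.8, 173 and 226 at 2dpr, 23.6, 50.5 and 26.8 at 5dpr, and 230, 298, 145 and 228 at 14dpr. At both ages all 2dpr libraries lay above all 0dpr libraries and all 14dpr libraries above all 5dpr libraries. The rise at 2dpr was 3.14 ± 0.45 on the log2 scale in immature mice (edgeR adjusted p = 5.75e-07) and 3.88 ± 0.46 in mature mice (edgeR adjusted p = 9.32e-09). From 5 to 14dpr Il1b rose by 2.38 ± 0.42 (edgeR adjusted p = 0.000502) and 2.74 ± 0.47 (edgeR adjusted p = 0.000381). Between 2 and 5dpr it fell by 2.19 ± 0.46 in mature mice (edgeR adjusted p = 0.00104), and the difference of -1.23 in immature mice did not pass. These comparisons share libraries, since each stage enters both the step before it and the step after it.

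Il1rn, the antagonist, had the largest fitted rise of the members at 2dpr in both ages. Its libraries had 2.69, 8.14, 1.18 and 4.31 CPM at immature 0dpr and 159, 102, 285 and 258 CPM at immature 2dpr. In mature mice they had 5.96, 10.4, 3.99 and 7.5 CPM at 0dpr and 146, 243, 96.1 and 199.7 CPM at 2dpr. No 2dpr library reached down to the 0dpr range at either age, and the rises were 5.64 ± 0.48 (edgeR adjusted p = 1.21e-11) and 4.62 ± 0.45 (edgeR adjusted p = 1.45e-10). The mean of Il1rn then went to 72.1 ± 36.5 CPM (SD, n = 4) at immature 5dpr and 62.2 ± 32.1 CPM (SD, n = 3) at mature 5dpr, a fall by 1.49 ± 0.38 and 1.46 ± 0.42 that passed at both ages. The immature call was lost without immature 2dpr replicate 3 or immature 5dpr replicate 4 (edgeR adjusted p = 0.0562 and 0.0586), and the mature call was not followed in such fits. At 14dpr it stood at 159 ± 23.3 CPM (SD, n = 4) and 177 ± 35.7 CPM (SD, n = 4), against 10.9 ± 3.03 and 14.1 ± 3.65 CPM at baseline. The increase from 5 to 14dpr passed in mature mice (1.51 ± 0.42, edgeR adjusted p = 0.0321, and 0.0703 to 0.189 without mature 5dpr replicate 3 or 4 or mature 14dpr replicate 2 or 4) and was 1.15 in immature mice, where it did not pass.

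The 250 bases before the start sites of Il1b, Il1rn, Il1r2 and Il6 are shown, from RefSeq on build GRCm38.p6, 5′ to 3′ on the gene's strand, with motif matches in capitals. These genes do not share 1 pattern of calls. Il6 was not called from 5 to 14dpr at either age, nor Il1rn in immature mice. Il1f9, called there at both ages, is not shown. The windows are chr2:129371140-129371389 (minus strand) for Il1b, chr2:24345121-24345370 (plus strand) for the last of the 3 annotated starts of Il1rn, chr1:40085843-40086092 (plus strand) for Il1r2 and chr5:30012864-30013113 (plus strand) for Il6.
Il1b: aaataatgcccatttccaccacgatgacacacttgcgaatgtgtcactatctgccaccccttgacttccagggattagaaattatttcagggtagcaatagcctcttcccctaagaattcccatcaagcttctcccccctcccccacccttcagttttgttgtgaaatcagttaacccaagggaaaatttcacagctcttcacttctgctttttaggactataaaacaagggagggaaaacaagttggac
Il1rn: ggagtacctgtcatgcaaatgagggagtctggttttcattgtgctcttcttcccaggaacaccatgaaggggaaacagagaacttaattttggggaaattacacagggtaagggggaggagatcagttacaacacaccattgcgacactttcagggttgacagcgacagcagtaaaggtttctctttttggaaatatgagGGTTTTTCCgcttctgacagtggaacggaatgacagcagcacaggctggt
Il1r2: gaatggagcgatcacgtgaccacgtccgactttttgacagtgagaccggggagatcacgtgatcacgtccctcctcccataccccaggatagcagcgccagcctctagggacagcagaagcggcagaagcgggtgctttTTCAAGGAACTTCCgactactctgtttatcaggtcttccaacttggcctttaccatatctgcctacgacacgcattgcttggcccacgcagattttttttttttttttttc
Il6: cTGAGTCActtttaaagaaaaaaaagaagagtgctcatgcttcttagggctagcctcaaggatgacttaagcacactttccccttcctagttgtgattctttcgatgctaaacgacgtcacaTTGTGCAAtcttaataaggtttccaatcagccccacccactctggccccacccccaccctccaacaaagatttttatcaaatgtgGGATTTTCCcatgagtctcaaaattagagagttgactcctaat
Searched on both strands were AP-1 (TGANTCA), a kappaB-like motif (GGNNNTTCC), STAT (TTCNNNGAA) and C/EBP (TTGCNNAA). The Il6 window held AP-1 at 249 to 243 bases before the start, C/EBP on the opposite strand at 128 to 121 and the kappaB-like motif at 43 to 35. The Il1rn window held the kappaB-like motif at 50 to 42, and the Il1r2 window a STAT match at 111 to 103 that overlaps a kappaB-like match at 106 to 98. None of the 4 motifs matched in the Il1b window. Of all 32851 RefSeq windows of this length, 6.75% held AP-1, 15.7% the kappaB-like motif, 7.02% STAT and 9.56% C/EBP. Of the 48 members matched to a window by symbol, with 62 windows between them, 11, 14, 7 and 13 held these motifs in at least 1 of their windows. These counts are per gene and the shares above per window, so they cannot be set against each other. A match is a run of letters, not a site.

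The decoy receptor Il1r2 followed the same course. Its means in immature mice were 13.5 ± 5.48, 5.70 ± 2.58, 19.8 ± 8.14, 8.97 ± 1.41 and 37.9 ± 9.68 CPM (SD, n = 4) from baseline to 14dpr, and in mature mice 18.8 ± 7.21, 4.53 ± 0.879, 60.9 ± 31.6, 10.2 ± 7.72 and 42.8 ± 15.4 CPM (SD, n = 4, and 3 at 5dpr). In mature mice the fall to 0dpr (-2.05 ± 0.44), the rise to 2dpr (3.74 ± 0.45), the fall to 5dpr (-2.55 ± 0.46) and the rise to 14dpr (2.04 ± 0.45) all passed, the last with edgeR adjusted p = 0.00522 and 0.0632 without mature 5dpr replicate 4. In immature mice the rises to 2dpr (1.82) and to 14dpr (2.08 ± 0.41, edgeR adjusted p = 0.00199) passed.

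Il1f9 also rose from 5 to 14dpr at both ages, from 8.75 ± 2.87 to 29.99 ± 6.67 CPM in immature mice (SD, n = 4, edgeR adjusted p = 0.04) and from 6.37 ± 2.23 (SD, n = 3) to 31.9 ± 11 CPM (SD, n = 4) at the mature stages (edgeR adjusted p = 0.0124). All 14dpr libraries were above all 5dpr libraries. The immature call was lost in 7 of 8 fits that left out 1 library (edgeR adjusted p = 0.0641 to 0.139), and the mature call without mature 5dpr replicate 1 or 4 (edgeR adjusted p = 0.0572 and 0.0917). Its receptor chain Il1rl2 rose at 2dpr by 1.73 and 1.85 and had means between 19.3 and 22.7 CPM at every later stage of both ages.

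**Figure D2:**
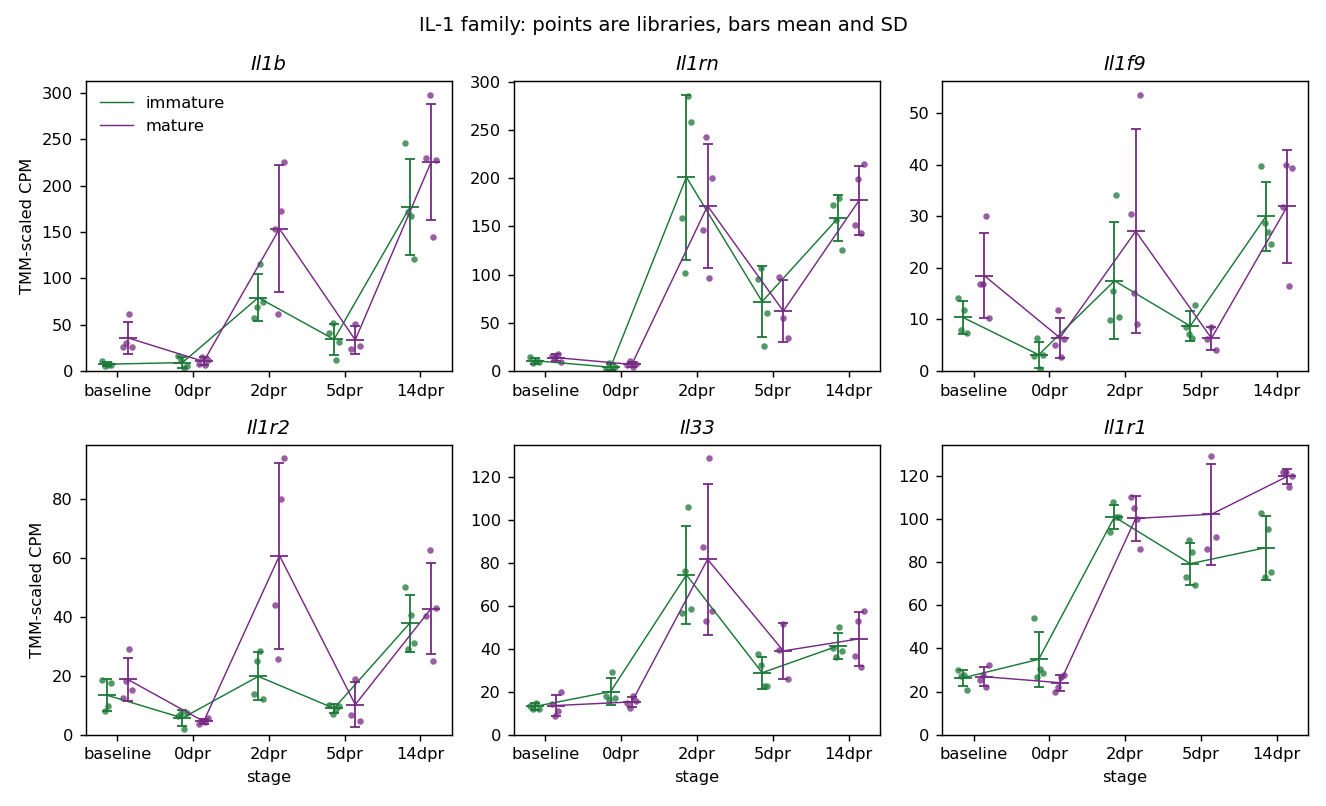
Level of 6 interleukin-1 family genes (vertical axes, TMM-scaled CPM from 0) at the 5 stages in immature (green) and mature (purple) mice, with 1 point per library and bars for mean and SD. Il1b, Il1f9 and Il1r2 have high points at 2dpr and 14dpr with a low 5dpr between them, Il33 is highest at 2dpr, and Il1r1 lies above its 0dpr points from 2dpr on.

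The signalling receptor Il1r1 was not called between 2 and 5dpr (-0.35 and 0.03) or between 5 and 14dpr (0.13 and 0.23), although all immature 5dpr libraries (69.3 to 90.1 CPM) lay below all immature 2dpr libraries (93.9 to 108 CPM). It rose at 2dpr by 1.53 ± 0.17 in immature and 2.05 ± 0.18 in mature mice, and its means from 2 to 14dpr were 101, 79.3 and 86.8 CPM and 100.3, 102 and 119.9 CPM, against 26.4 and 26.9 CPM at baseline. Immature 0dpr replicate 1, the library with liver genes, had 54.2 CPM of Il1r1 where the other 3 had 26.9 to 30.3. The partner chain Il1rap did vary with the ligand, rising at 2dpr (0.84 and 1.81), falling at 5dpr (-0.71 and -1.19) and, in mature mice, rising at 14dpr (0.82). The immature fall was lost without immature 2dpr replicate 2 or 3 or immature 5dpr replicate 3 (edgeR adjusted p = 0.0518 to 0.115), and the mature rise at 14dpr without 1 of 4 libraries, mature 14dpr replicates 1 and 2 and mature 5dpr replicates 1 and 4 (edgeR adjusted p = 0.0671 to 0.113). The mature fall was not followed in such fits.

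Il33, an alarmin held in the nucleus of tissue cells, peaked at 2dpr. Immature libraries had 17.9, 16.1, 29.3 and 17.1 CPM at 0dpr, 56.9, 76.3, 106 and 58.4 at 2dpr and 37.6, 32.6, 22.8 and 22.5 at 5dpr. Mature libraries had 14.7, 12.6, 18.2 and 15.7 CPM at 0dpr, 87.2, 52.8, 129 and 57.6 at 2dpr and 39.6, 51.6 and 25.9 at 5dpr. The rises (1.88 ± 0.28 and 2.41 ± 0.28) and the falls (-1.38 ± 0.27 and -1.06 ± 0.29) passed at both ages without overlap of the groups. Its receptor Il1rl1 rose at 2dpr by 1.51 and 1.84 and did not pass between 2 and 5dpr (-0.07 and 0.18). Il1a and Il18 were low, with group means of 0.957 to 5.26 CPM and 3.33 to 17.6 CPM, and both rose at 2dpr (Il1a by 2.08 and 1.70, Il18 by 1.63 and 2.19). The mature Il1a call was lost without mature 0dpr replicate 1 or 3 or mature 2dpr replicate 1 (edgeR adjusted p = 0.0534 to 0.0611). The chains Il18rap and Il18r1 were lower at 0dpr than at baseline in mature mice (-1.77 and -1.34), Il18rap also in immature mice (-1.48). The Il18r1 call was lost without mature baseline replicate 2 or mature 0dpr replicate 1 or 3 (edgeR adjusted p = 0.057 to 0.0749), and the immature Il18rap call without immature baseline replicate 2 or immature 0dpr replicate 1 or 3 (edgeR adjusted p = 0.0583 to 0.105).

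Il4ra had the highest level per length of any receptor gene at 2dpr, with 73.7 CPM per kb of exon in immature and 93.2 CPM per kb in mature mice, against 40.1 and 43.0 CPM per kb for Il6st. Its libraries had 68.6, 66.9, 40.8 and 62.2 CPM at immature 0dpr and 385, 549.9, 470.4 and 364 CPM at immature 2dpr. In mature mice they had 66.8, 66.0, 54.3 and 36.1 CPM at 0dpr and 546, 502, 447 and 741 CPM at 2dpr. The groups lay far apart, and the rises were 2.89 ± 0.22 (edgeR adjusted p = 6.52e-13) and 3.33 ± 0.22 (edgeR adjusted p = 2.35e-14). Il4ra then fell by 1.35 ± 0.20 in immature mice (edgeR adjusted p = 3.18e-05) and by 1.01 in mature mice to 174 ± 17.2 CPM (SD, n = 4) and 278 ± 101 CPM (SD, n = 3) at 5dpr, and at 14dpr remained above baseline by 1.60 and 1.58.

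The partner chain Il13ra1 rose at 2dpr by 2.22 ± 0.18 and 3.00 ± 0.19 and did not pass in either direction after that, with immature means of 101, 105 and 100.4 CPM and mature means of 143, 102 and 118 CPM at 2, 5 and 14dpr. The shared chain Il2rg rose by 2.41 and 1.79. Mature 2dpr replicate 3 had 36 reads of it, where the other mature 2dpr libraries had 227 to 501 and the mature 0dpr libraries 24 to 53. The decoy Il13ra2 rose at 2dpr (2.00 and 2.5) and was at most 7.83 CPM in any group mean. Interleukin-4 and interleukin-13 themselves gave few reads. Il4 had group means of 0.137 to 1.31 CPM and at most 18 reads in a library, and Il13, outside the filtered table, had 3 reads in all 39 libraries together.

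**Figure D3:**
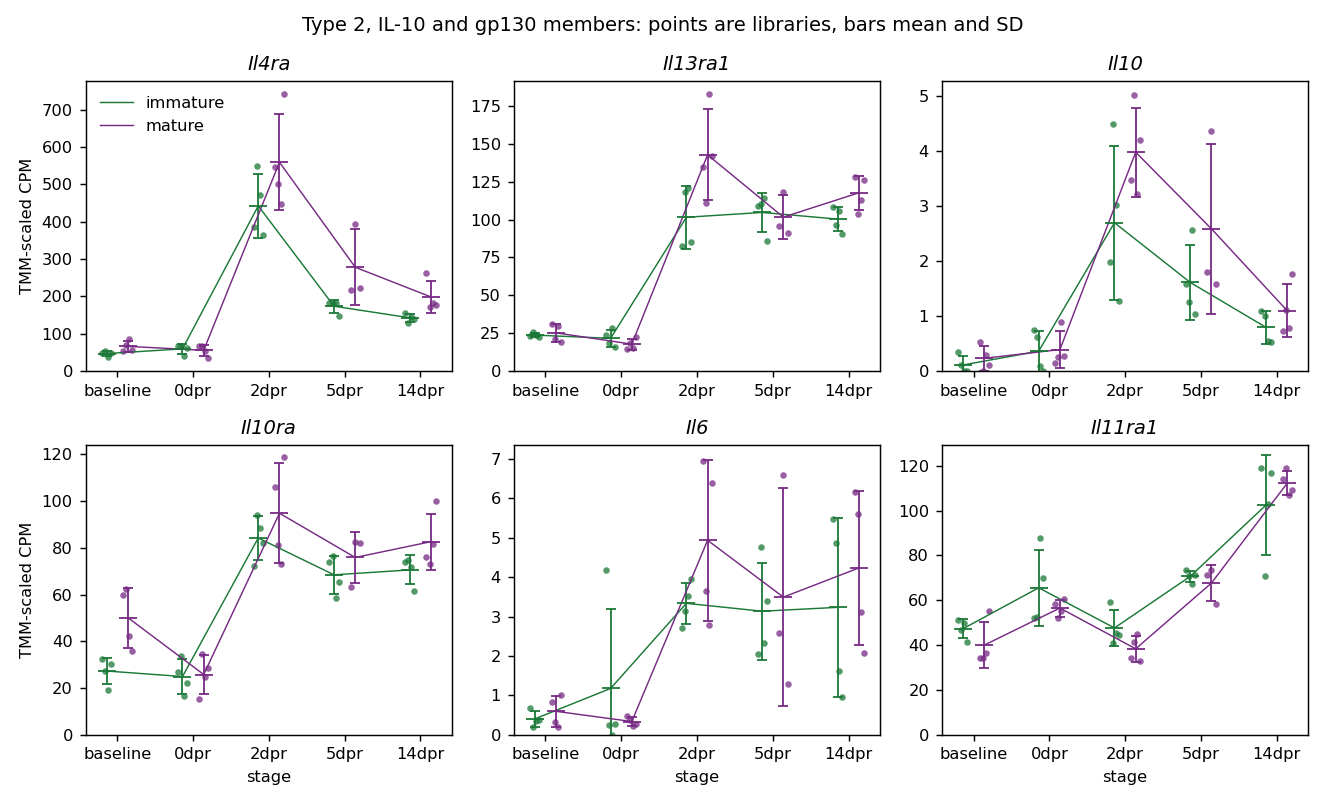
Level of 6 members outside the interleukin-1 family (vertical axes, TMM-scaled CPM from 0) at the 5 stages in immature (green) and mature (purple) mice, with 1 point per library and bars for mean and SD. Il4ra and Il10 are highest at 2dpr, Il13ra1 and Il10ra stay high after 2dpr, and Il11ra1 is highest at 14dpr.

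Interleukin-10, which restrains macrophage activation, was low but rose at 2dpr. Immature libraries had 0.747, 0.616, 0.0910 and 0 CPM at 0dpr and 1.99, 4.50, 3.02 and 1.28 CPM at 2dpr, the latter from 11 to 40 reads. Mature libraries had 0.157, 0.249, 0.886 and 0.278 CPM at 0dpr and 3.47, 5.02, 3.22 and 4.21 CPM at 2dpr. The groups did not overlap, and the fitted rises were 2.92 ± 0.69 (edgeR adjusted p = 0.000756) and 3.24 ± 0.67 (edgeR adjusted p = 0.000136). Both receptor chains rose with it, Il10ra by 1.76 and 1.87 and Il10rb by 2.11 and 2.32. Il10ra stayed above baseline at 14dpr (1.37 ± 0.21 and 0.72 ± 0.20), as did Il10rb (1.20 and 1.04).

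Il6 rested on few reads. Immature libraries had 0.685, 0.206, 0.340 and 0.383 CPM at baseline, 4.18, 0.247, 0 and 0.278 at 0dpr, and 2.72, 3.15, 3.52 and 3.95 at 2dpr. The 4.18 CPM, from 28 reads, was again immature 0dpr replicate 1. With it the rise at 2dpr did not pass (1.59, edgeR adjusted p = 0.069), and without it the rise was 4.32 (edgeR adjusted p = 3.29e-05). Mature libraries had 0.471, 0.374, 0.222 and 0.278 CPM at 0dpr, from 2 to 3 reads each, and 6.94, 3.64, 2.78 and 6.38 CPM at 2dpr, a rise of 3.86 ± 0.82 (edgeR adjusted p = 0.000175). At 14dpr Il6 was above baseline by 2.97 ± 0.78 and 2.83 ± 0.74. Il11 passed in mature mice at 2dpr (3.46), with group means of 0.118 CPM before and 1.5 CPM after, and mature 2dpr replicate 3 had no read of it.

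The receptor side of the gp130 family moved differently. Il6st had the highest level per length of the receptors at baseline, 32.0 CPM per kb in immature and 30.6 CPM per kb in mature mice, and rose by 14dpr by 0.63 and 0.82. Il11ra1 fell at 2dpr (-0.46 and -0.56), rose at 5dpr (0.57 ± 0.16 and 0.82 ± 0.17) and at 14dpr stood above baseline by 1.11 and 1.49, with 119, 71.0, 103 and 117 CPM in immature and 114, 119, 107 and 109 CPM in mature libraries. The immature call of Il11ra1 at 5dpr was lost without immature 2dpr replicate 2, 3 or 4 or immature 5dpr replicate 2 (edgeR adjusted p = 0.0555 to 0.0925). Il6ra rose at 2dpr in mature mice (1.16 ± 0.25), and the difference of 0.55 in immature mice did not pass.

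Among interleukin-17 receptors, Il17ra, the shared chain, fell at 0dpr (-0.97 ± 0.26 and -1.08) and rose at 2dpr (1.27 and 1.31). Il17rd fell at 2dpr (-0.78 ± 0.23 and -0.63 ± 0.23) and rose at 5dpr (0.96 ± 0.23 and 0.95 ± 0.24), and Il17rc rose at 5dpr in mature mice (1.02 ± 0.27). With the muscle score the Il17rd difference at 2dpr turned to 0.0718 in immature and 0.44 in mature mice. Its mature call at 2dpr was lost without mature 0dpr replicate 3 or mature 2dpr replicate 1 (edgeR adjusted p = 0.0665 and 0.0923). The mature calls at 5dpr were lost without mature 5dpr replicate 4 for Il17rd and without mature 5dpr replicate 1 for Il17rc (edgeR adjusted p = 0.0612 and 0.0632). The ligand genes Il17a and Il17f had 2 and 12 reads in all libraries together. Il17d, the only interleukin-17 ligand among the members, was lower at 2dpr (-1.91 and -2.59) at group means of at most 1.97 CPM. Il7r, the receptor of a lymphocyte survival factor, rose at 2dpr by 2.55 ± 0.44 and 2.89 ± 0.44, and Il21r by 2.34 and 2.02. The summed level of 6 T cell genes went the other way. Its median went from 19.2 to 6.46 CPM in immature and from 22.3 to 6.00 CPM in mature mice between 0 and 2dpr. The cells behind the Il7r values were not tested.

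At 0dpr against baseline, 1 member was called higher and 8 lower in immature mice, against 5.98% and 4.66% of all genes. In mature mice 1 was called higher and 14 lower, against 11.9% and 10.6%. In percent of the 60 members the lower calls were 13.3% and 23.3%. Il10rb, Il16, Il17ra, Il18rap, Il1f9 and Il2rb were lower at both ages, that is 75% of the immature and 42.9% of the mature list. Calls shared between the ages were not counted over all genes, so this and the later overlaps have no background beside them. Il16, a chemoattractant of CD4+ cells, went from 94.7 ± 13.5 to 56.1 ± 9.93 CPM in immature and from 102 ± 15.4 to 61.3 ± 15.4 CPM in mature mice (SD, n = 4). Neutrophil genes summed to a median of 5545 CPM at baseline and 1578 at 0dpr in immature mice, and to 7997 and 2144 CPM in mature mice. With a muscle score as a covariate 2 and 1 members were called, against 4.5% and 0.92% of all genes, and with only the libraries compared 0 in immature mice, against 0.226%. These shares lie near the background. Among the genes lower at both ages, the immature calls of Il1f9, Il18rap and Il17ra were lost in 6, 3 and 2 of 8 fits that left out 1 library and the mature call of Il1f9 in 4 of 8. Without immature 0dpr replicate 1 or replicate 3 all 3 of these immature calls were lost. The immature count was 1 without immature 0dpr replicate 3, and 4 without immature 0dpr replicate 1, immature baseline replicate 2 or immature baseline replicate 6. The 1 call kept without immature 0dpr replicate 3 was Il2rb (edgeR adjusted p = 0.0344), so the immature calls of Il10rb and Il16 were lost there. Il10rb and Il16 were not otherwise followed gene by gene in these fits.

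At 2dpr against 0dpr, 24 members were called higher and 8 lower in immature mice, against 21.8% and 22.2% of all genes, and 28 higher and 9 lower in mature mice, against 22.7% and 24.9%. Higher calls made up 40% and 46.7% of the members. By class, 8 and 10 of the 18 ligands with the antagonist and 16 and 18 of the 40 receptors were called higher. The higher calls shared 23 genes between ages, 95.8% of the immature and 82.1% of the mature list. The same share over all genes was not computed, so this is not read as particular to the members. The median log2 change of the members was 0.77 and 1.12, against -0.04 and -0.05 over all genes. Lower at both ages were Il11ra1, Il12a, Il17d, Il17rd and Il20rb. Il12a, a subunit of interleukin-12, was 3.85 and 4.74 CPM at 0dpr and 1.17 and 1.46 CPM at 2dpr. The summed level of 6 macrophage and monocyte genes went from a median of 1411 to 7220 CPM in immature and from 1353 to 7721 CPM in mature mice, that of 5 B cell genes from 77.0 to 18.0 and from 89.3 to 14.5 CPM, and the neutrophil sum from 1578 to 1210 and from 2144 to 2571 CPM.

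The part of the leukocyte marker changes in the interleukin values was not tested. For muscle, a score from its genes was added to the fit as a covariate. With that covariate, which separates 0dpr from 2dpr, 9 members were called higher at immature 2dpr, against 3.91% of all genes, and 10 at mature 2dpr, against 3.43%. No member was called lower, against 2.81% and 2.17% of all genes. Il1rn (4.70 and 3.48), Il4ra (2.72 and 3.12) and Il1b (2.85 and 3.53) still passed at both ages and Il1r2 (4.31) in mature mice. Among the rises that did not pass were Il10 (2.17) and Il1f9 (2.31) in immature mice and Il10 (2.29) and Il6 (0.69) in mature mice. This list is not complete. Over all alternative fits, of which the muscle score is 1, the immature rises of Il7r, Il1a and Il18 were each called in 7 of 8. In mature mice Il18 was called in 7 and Il1a in 6 of 8, and Il7r was not followed.

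Signalling genes of the same pathways, 41 listed outside the members, were called higher in 20 and lower in 5 cases at immature 2dpr, and in 24 and 5 at mature 2dpr, where 21.8% and 22.2% of all genes were called higher and lower in immature and 22.7% and 24.9% in mature mice. Of 14 genes of the interleukin-1 and interleukin-18 arm 8 and 11 were higher and 0 lower. Nlrp3, the inflammasome sensor upstream of interleukin-1 beta release, rose by 2.75 ± 0.38 and 2.97 ± 0.37, and the adaptor Myd88 by 2.08 ± 0.15 and 2.47 ± 0.16. Of 13 gp130 arm genes 6 and 8 were higher and 3 lower at each age, with the feedback inhibitor Socs3 up by 1.62 ± 0.32 and 3.15 ± 0.34 and the ligand Osm by 1.90 ± 0.54 and 2.36 ± 0.54.

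At 5dpr against 2dpr, 2 members were called higher and 6 lower in immature mice, against 4.37% and 3.68% of all genes, and 4 higher and 13 lower in mature mice, against 8.16% and 6.38%. Lower at both ages were Il10rb, Il1rap, Il1rn, Il21r, Il33 and Il4ra, and higher at both Il11ra1 and Il17rd. Without mature 5dpr replicate 4 the mature count went from 17 to 8, and without immature 2dpr replicate 3 the immature count went from 8 to 5. The mature falls of Il10rb, Il1rap, Il1rn, Il21r, Il33 and Il4ra were not followed gene by gene in these fits. Some of them were among the calls lost without mature 5dpr replicate 4. Among the mature falls, Il31ra (-3.15, edgeR adjusted p = 0.0258) rested on mature 2dpr replicate 3, which had 6.77 CPM where the other 3 libraries had 0.346 to 1.32, and without it the difference was -1.68 (edgeR adjusted p = 0.24). The call was also lost without any 1 of the 3 mature 5dpr libraries (edgeR adjusted p = 0.0825 to 0.0939). Il27, a ligand of the interleukin-12 family, had -2.38 (edgeR adjusted p = 0.0442) and lost its call without mature 2dpr replicate 3 or 4 or mature 5dpr replicate 3 or 4 (edgeR adjusted p = 0.071 to 0.204).

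At 14dpr against 5dpr, 4 members were called higher and 0 lower in immature mice, against 1.73% and 1.45% of all genes, and 7 higher and 0 lower in mature mice, against 1.95% and 2.23%. DESeq2 called 9 members in immature mice, against 4.87% of the genes it tested. An unadjusted edgeR p under 0.05 was found for 15 members at each age, against 14% and 18.4% of all genes. Il1b, Il1f9 and Il1r2 were called at both ages, 75% of the immature and 42.9% of the mature list, with no such share over all genes computed. The others were Il20rb in immature mice (0.83 ± 0.23) and Il1rn, Il1rap, Il11ra1 and Il6st in mature mice. The Il20rb call was lost in 7 of 8 fits that left out 1 library (edgeR adjusted p = 0.0531 to 0.167), and was kept without immature 5dpr replicate 4. The Il11ra1 call was lost without mature 5dpr replicate 4 (edgeR adjusted p = 0.0937). The mature count was 1 without mature 5dpr replicate 4 and 4 without replicate 1. The immature count was 2 without immature 5dpr replicate 2 or 3, or immature 14dpr replicate 1, 3 or 4. Between these stages the macrophage sum went from a median of 6283 to 7451 CPM in immature and from 6358 to 7108 CPM in mature mice, and the neutrophil sum from 2242 to 1982 and from 1158 to 1573 CPM.

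At 14dpr against baseline, 19 members were called higher and 6 lower in immature mice, against 16.4% and 15.1% of all genes, and 22 higher and 7 lower in mature mice, against 17.1% and 16.4%. The higher lists shared 18 genes, among them Il1b (4.56 ± 0.47 and 2.65 ± 0.42), Il1rn (3.87 ± 0.43 and 3.65 ± 0.42), Il13ra1 (2.08 ± 0.18 and 2.22 ± 0.18), Il1r1 (1.72 ± 0.17 and 2.15 ± 0.17) and Il33 (1.65 ± 0.28 and 1.72 ± 0.28). Il12a, Il16, Il17rb and Il5ra were lower at both ages. For these overlaps too the share over all genes was not computed. Il5ra, the receptor of an eosinophil growth factor that B cells also carry, had 4.84 to 7.46 CPM at immature baseline and 0.487 to 1.52 CPM at immature 14dpr (-2.5 ± 0.69), and 1.80 to 9.27 and 0 to 1.45 CPM in mature mice (-3.14 ± 0.74). The B cell sum had medians of 178 and 58.4 CPM at these immature stages and 118 and 33.2 CPM at the mature ones, and its part in the Il5ra values was not tested. With the muscle score 11 members were called in immature and 19 in mature mice, against 8.36% and 23.5% of all genes. The immature call of Il16 was lost without immature baseline replicate 2 or 3 or immature 14dpr replicate 1 (edgeR adjusted p = 0.0543 to 0.0982) and that of Il17rb without immature 14dpr replicate 3 (edgeR adjusted p = 0.0709).

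**Figure D4:**
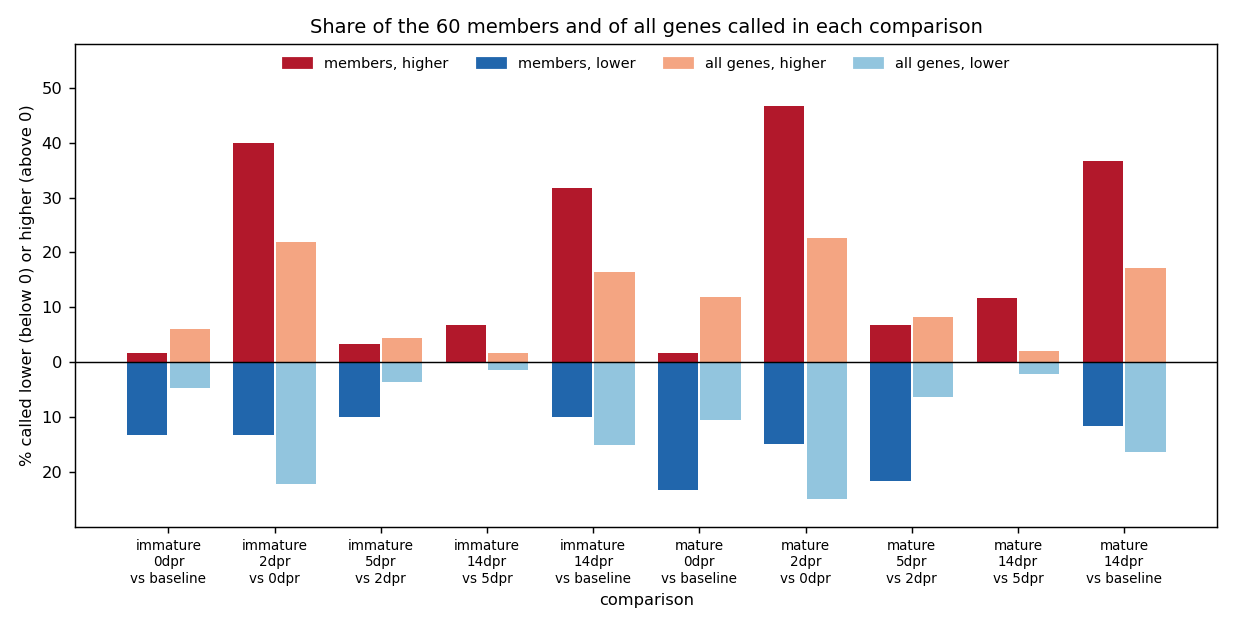
Percent of the 60 members (dark bars) and of all 21204 genes (pale bars) called higher (above 0) and lower (below 0) in 10 stage comparisons. Members called higher exceed the share of all genes at 2dpr against 0dpr, 14dpr against 5dpr and 14dpr against baseline at both ages, and members called lower exceed it at 0dpr against baseline and 5dpr against 2dpr.

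Few members were called between the ages. At baseline 2 members were called, both lower in immature mice, against 0.585% of all genes called in either direction. Il1b had 5.57 to 10.6 CPM in immature and 25.8 to 61.4 CPM in mature libraries, a difference of -2.26 ± 0.44 (edgeR adjusted p = 0.009, and 0.0741 without mature baseline replicate 3, the library at 61.4). Il10ra had 19.3 to 32.3 CPM in immature and 36 to 62.3 CPM in mature libraries, -0.88 ± 0.21 (edgeR adjusted p = 0.0352), and kept its call in 2 of 8 fits that left out 1 library. The groups did not overlap for either gene. Neutrophil genes summed to 4896 to 8092 CPM in immature and 5956.5 to 15397 CPM in mature baseline libraries, and macrophage genes to 1691 to 2456 and 1980.0 to 3314 CPM, and their part in the difference was not tested.

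At 2dpr, Il1r2 was the only member called, against 0.627% of all genes. It had 13.7, 25.0, 28.5 and 12.1 CPM in immature and 43.9, 25.6, 80.0 and 93.9 CPM in mature libraries, which overlap, for a difference of -1.62 ± 0.40 (edgeR adjusted p = 0.0468). The call held in 3 of 8 fits that left out 1 library and was lost without mature 2dpr replicate 3 or 4 or without immature 2dpr replicate 1, 2 or 4. No member was called at 0dpr (0.726% of all genes), 5dpr (0%) or 14dpr (0.00943%), where 5, 3 and 3 members had an unadjusted edgeR p under 0.05, against 10.7%, 5.1% and 4.57% of all genes. At baseline 6 members had one, against 11.7%, and at 2dpr 15 members, against 13.3%. No member passed the interaction of age with the change from 0 to 2dpr (0.0613% of all genes), where 12 had an unadjusted edgeR p under 0.05, against 11.2%. DESeq2 also called 0 members at 0, 5 and 14dpr and for the interaction, against 1.65%, 0.156%, 0.151% and 0.525% of the genes it tested. At 2dpr Il1b differed by -0.95 ± 0.40 and Il1rn by 0.23 ± 0.37 between the ages, neither of which passed.

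The balance of antagonist to ligand was followed within each library, as the log2 ratio of Il1rn to Il1b reads per kb of exon, a measure chosen after the values were seen. At baseline it was -1.01 ± 0.0869 (SD, n = 4) in immature and -2.82 ± 0.481 (SD, n = 4) in mature mice, without overlap. The difference of 1.82 had an exact two-sided permutation p of 0.0286, the smallest that 4 against 4 libraries allow, and an adjusted p of 0.286 over the 10 ratios tested. At 2dpr the ratios were -0.258 ± 0.522 and -1.32 ± 1.22 (exact permutation p = 0.171), and at 14dpr -1.66 ± 0.283 and -1.86 ± 0.314 (exact permutation p = 0.286). For the decoy against the signalling receptor, Il1r2 to Il1r1, the ratios at 2dpr were -0.703 ± 0.573 in immature and 0.849 ± 0.975 in mature mice (SD, n = 4, exact permutation p = 0.0571, adjusted p = 0.286).

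**Figure D5:**
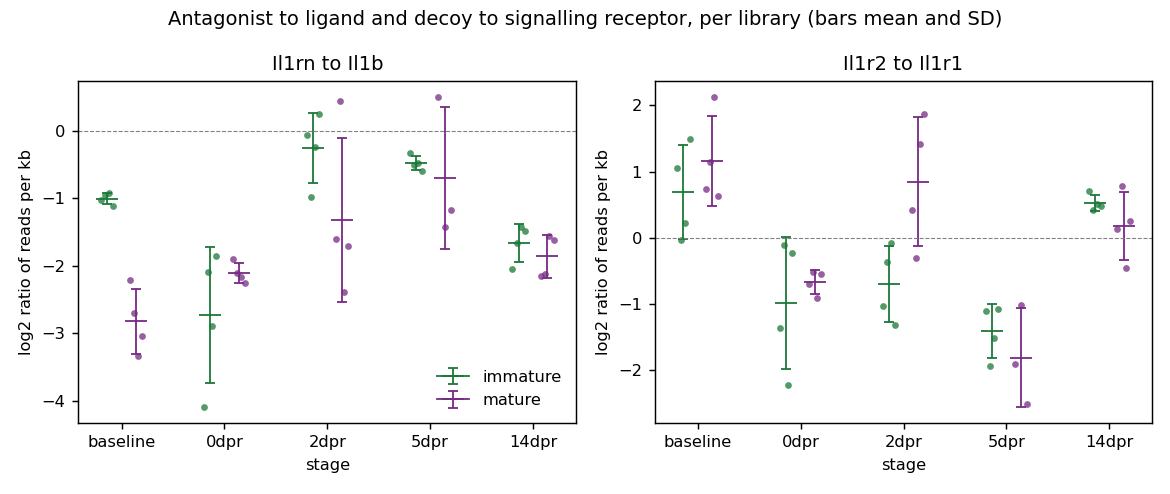
Log2 ratio of reads per kb of exon of Il1rn to Il1b (left) and of Il1r2 to Il1r1 (right) in each library (points) by stage, with mean and SD for immature (green) and mature (purple) mice. The baseline ratios of Il1rn to Il1b do not overlap between the ages, and at 14dpr both ages lie near the same value.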

How the data were processed

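RNA from rib callus of 39 libraries in 10 groups of age and stage was analysed. The authors used STAR 2.5.2a for mapping to GRCm38 and for gene counting, and deposited raw counts for 48733 genes, raw counts for the 21204 genes that passed their filter, and a normalised signal table of CPM with TMM scaling. The deposited CPM equalled those computed from the filtered counts with edgeR (largest relative difference 5e-15). Libraries were prepared with a stranded kit, and the labels mention separate sequencing runs without tying them to libraries, so no batch term could be fitted. Whether the counting used strand is not given in the sources used here.

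The filtered counts were tested with edgeR 4.0.16 (limma 3.58.1, R 4.3.3), by a quasi-likelihood fit of all 10 groups with Benjamini-Hochberg adjustment over 21204 genes and a threshold of 0.05. DESeq2 1.42.0, which the study's methods name, was an alternative. Other alternatives were RLE size factors, 2 other gene filters, a replicate block, a muscle score covariate, only the libraries compared, and each library left out in turn (39 fits). On simulated counts of the comparison of immature 2dpr with 0dpr over 21204 genes, the test called 86%, 50%, 58% and 96% of genes changed by -2, -1, 1 and 2 on the log2 scale and 4 of 21004 unchanged genes. The simulation changed 50 genes at each size, all with a mean of at least 1 CPM. In the real comparison 44% of all genes were called. These rates therefore do not carry over to the real comparison or to members under 1 CPM. Ratios of 2 genes were computed per library with 0.5 reads added and compared by a two-sided exact permutation test. RefSeq promoter windows were matched by symbol for 48 members. Replicates of each group varied at least 6.39 times more than counting error, so none was treated as a repeat of another.

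Same-numbered libraries of the 2 ages deviated together at 0dpr (mean correlation 0.15, lowest 0.109, 4 pairs) and at no other stage or step, and the block called 0 members there as well. Totals of 6075355 to 21546977 counts set the precision, and 12 members had a mean under 1 CPM. Members named with values were drawn from up to 6 called per direction and comparison with the largest change and a mean of at least 1 CPM, the ligands that the study also measured in plasma, and their receptors or ligands. Not every such call is described above. Among those left out was Il12rb2 (-1.89 at mature 0dpr, call kept in 4 of 8 fits leaving out 1 library). So were Il9r (-1.52 at mature 2dpr, 3 of 8) and Il15ra (-0.97 at immature 2dpr, 8 of 8). The calls from baseline to 0dpr of Il1b in mature mice (-1.78, 8 of 8) and of Il1rn (-1.43, 2 of 8), Il21r (-0.95, 3 of 8) and Il6st (0.301, 2 of 8) in immature mice were not described either. Nor were Il5ra at mature 2dpr (-2.39, 7 of 8) and Il13ra2 at mature 5dpr (-2.04, 4 of 7), and this list is not full. Il2rb (-1.67 at immature 0dpr, 8 of 8) was named without its value. Others were chosen after their values were seen, namely Il11, Il27, Il31ra, Il7 and Il34 where the rule did not reach them. The signalling genes Nlrp3, Myd88, Socs3 and Osm were also picked outside the rule. The members and gene lists were chosen with earlier results of these data known.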

Additional observations from a re-analysis of the deposited data

Results flagged for a closer look

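For 25 members, the highest and lowest library of each group of 4 was compared with the rest by Dixon's test, and 17 of 225 groups (7.56%) held a library that stood apart, where chance gives about 1 in 20. Among ligands, Il1b was 61.4 CPM in mature baseline replicate 3 against 25.8 to 30.2 in the others, Il33 29.3 CPM in immature 0dpr replicate 3 against 16.1 to 17.9, and Il16 59.9 CPM in immature 14dpr replicate 1 against 67.6 to 67.9. Il6 was 4.18 CPM in immature 0dpr replicate 1 against 0 to 0.278, and Il10 was 0.886 CPM in mature 0dpr replicate 3 against 0.157 to 0.278, from 8 reads. Il12a was 2.86 CPM in immature 5dpr replicate 2 against 1.38 to 1.54 and 7.73 CPM in mature 0dpr replicate 2 against 3.47 to 3.99. Il11 was 0.251 CPM in immature 2dpr replicate 3 against 1.05 to 1.16 and 0 CPM in mature 2dpr replicate 3 against 1.9 to 2.17.

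Among receptors, Il1r1 was 54.2 CPM in immature 0dpr replicate 1 against 26.9 to 30.3, and Il4ra was 148 CPM in immature 5dpr replicate 5 against 182 to 183 and 263 CPM in mature 14dpr replicate 1 against 171 to 182. Il13ra1 was 85.9 CPM in immature 5dpr replicate 5 against 109 to 114, the same library in which Il4ra was low. Il6st was 317 CPM in immature baseline replicate 6 against 363 to 371, and Il11ra1 55.2 CPM in mature baseline replicate 4 against 34.1 to 36.3. Il2rg was 14.6 CPM in immature 14dpr replicate 4 against 18.9 to 19.7, and Il17rd 12 CPM in immature 2dpr replicate 1 against 8.33 to 8.94.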

How the results depend on the processing

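Of 98 gene results, all 98 kept direction and call under DESeq2, RLE size factors and the filterByExpr filter, and 89 under all genes with at least 1 count. With only the libraries compared 23 calls were lost, with the muscle score 51 were lost and 3 results changed sign, and with the replicate block 15 were lost and 1 gained. The sign changes under the muscle score were Il17rd (0.0718 immature, 0.44 mature) and immature Il6 (-0.767) at 2dpr against 0dpr, and mature Il16 there (-0.17, not called) ranged from -0.321 to 0.0269 over fits leaving out 1 library (0.0269 without mature 0dpr replicate 2 and 0.00467 without mature 2dpr replicate 2). RLE factors moved the median of all genes at 2dpr against 0dpr by -0.0928 in immature and -0.0838 in mature mice. Counts of members called follow, with the count of all genes called in brackets (of 21204 tested, 21123 with DESeq2). In immature mice at 0dpr against baseline they were 4 (802) with the replicate block, 2 (954) with the muscle score and 0 (48) with only the libraries compared. At 2dpr against 0dpr the muscle score gave 9 (1425). At 5dpr against 2dpr it gave 5 (1179), and only the libraries compared gave 14 (2988). At 14dpr against 5dpr the block gave 2 (525), only the libraries compared 12 (1875) and DESeq2 9 (1029). At 14dpr against baseline the muscle score gave 11 (1772). The main fit called 2257, 9324, 1707, 674 and 6667 of all genes in these comparisons, in this order. In mature mice the muscle score gave 1 (195), 10 (1188), 7 (1568) and 19 (4973) at 0dpr against baseline, 2dpr against 0dpr, 5dpr against 2dpr and 14dpr against baseline. Only the libraries compared gave 24 (6119) at 2dpr against 0dpr, 6 (714) at 5dpr against 2dpr and 12 (2589) at 14dpr against 5dpr. The main fit called 4775, 10100, 3084, 886 and 7113 of all genes in mature mice, in the order used for immature mice. Between ages, the block gave 1 (100) at baseline and 0 (140) at 2dpr. There RLE, the muscle score and DESeq2 each gave 2 (155, 284 and 428) and only the libraries compared gave 0 (4). The cause was not tested. Replicate numbers did not pair libraries other than between ages at 0dpr (mean correlation 0.00847 over 154 pairs). Leaving out 1 library gave 1 to 12, 29 to 33, 5 to 8, 2 to 3 and 21 to 27 immature calls and 10 to 22, 35 to 43, 8 to 19, 1 to 7 and 24 to 29 mature calls, in the order 0dpr against baseline, 2dpr against 0dpr, 5dpr against 2dpr, 14dpr against 5dpr and 14dpr against baseline, 0 to 2 between ages at baseline and 0 to 3 at 2dpr. The count of all genes called was not kept for these fits, so these ranges have no background beside them. Without immature 0dpr replicate 1, immature 5dpr replicate 2 and mature 2dpr replicate 3, an alternative chosen after seeing the data, 89 gene results kept their call, 8 lost it and Il6 at immature 2dpr gained it, and 0 members differed between ages at 2dpr. For the baseline ratio of Il1rn to Il1b, leaving out 1 library gave differences of 1.65 to 2.02 (exact permutation p = 0.0571 each). The ages stayed without overlap each time, so this p was the smallest the test allows with 1 library fewer and was fixed in advance. Depth limits members under 1 CPM.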

Other observations

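A further 23 interleukin ligand and receptor genes were in the full count table but not among the 21204 filtered genes, none with more than 76 reads over all 39 libraries. Il2, the T cell growth factor, had 76 reads, Il23a 49, Il5 21 and Il21 12, and no read was counted for Il9, Il24 or Il1f10. Of the 12 members that passed in no stage comparison, Il34, a ligand of the macrophage receptor Csf1r, had a mean of 8.52 CPM, Il27ra 5.92 CPM, Il4i1 3.67 CPM, Il7 3.60 CPM and Il2ra 2.48 CPM.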
